A study of Mus musculus with 12 samples.

Results

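Splicing regulators of Pkm and of photoreceptor exons were followed through 12 mouse libraries. The set holds 10 genes, taken by symbol from a table of 56748 genes: Hnrnpa1, Hnrnpa2b1, Ptbp1, Ptbp2, Srsf3, Rbm4, Msi1, Msi2, Srrm3 and Srrm4. All 10 were found once and all 10 passed the filter on low values. RNA was sequenced from ribosomes pulled down from rods (TRAP, the bead fraction, called rods here) and from whole retinal lysate before the pulldown (the input, called retina here). There were 3 libraries of each fraction from each of 2 genotypes.

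All mice were homozygous for RiboTag, an allele with which Cre tags a ribosomal protein with HA. All carried rhodopsin-Cre (i75), which is active in rods. Control mice (Pkm2_Rodhet in the labels, wt in the library names) had 1 floxed Pkm2 allele, so the controls were heterozygous in rods and not wild type. Pkm2 Rodko mice had both alleles floxed. All mice were perfused with cycloheximide, and polyA RNA was sequenced. The deposited description gives an age of 2 weeks, whereas the study's methods give 2 months. How many animals went into a library is not stated in the sources used here, so p-values measure only the spread between these libraries.

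Pkm carries a pair of mutually exclusive exons, of which 1 yields the pyruvate kinase isoform PKM1 and the other PKM2. In other cell types hnRNP A1, hnRNP A2/B1 and PTBP1 repress the PKM1 exon, SRSF3 favors the PKM2 exon, and RBM4 favors the PKM1 exon. The Musashi proteins MSI1 and MSI2 and the SR-related proteins SRRM3 and SRRM4 promote inclusion of neuronal and photoreceptor exons, many of them microexons. The table gives 1 value per gene, so neither the choice between the Pkm exons nor the inclusion of any photoreceptor exon was measured, and only the levels of the regulators are described.

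The exons that these regulators choose between are shown because their length is the same while their sequence differs. In the GENCODE vM21 annotation of GRCm38, which is an older build than the GRCm39 named in the submitters' processing notes, both lie in the coding part of Pkm on the plus strand of chromosome 9. The upstream exon, at chr9:59675029-59675195, is in transcript Pkm-202 (PKM1). The downstream exon, at chr9:59675568-59675734, is in Pkm-201 (PKM2). Each has 167 bases and 372 bases lie between them. Capitals mark the 64 positions at which the 2 exons differ, and the other 103 bases (61.7%) are identical.

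Upstream exon (PKM1): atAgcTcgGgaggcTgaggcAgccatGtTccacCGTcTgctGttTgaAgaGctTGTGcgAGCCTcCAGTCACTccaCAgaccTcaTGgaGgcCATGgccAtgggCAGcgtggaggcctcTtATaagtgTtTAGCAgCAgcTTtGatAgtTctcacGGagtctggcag

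Downstream exon (PKM2): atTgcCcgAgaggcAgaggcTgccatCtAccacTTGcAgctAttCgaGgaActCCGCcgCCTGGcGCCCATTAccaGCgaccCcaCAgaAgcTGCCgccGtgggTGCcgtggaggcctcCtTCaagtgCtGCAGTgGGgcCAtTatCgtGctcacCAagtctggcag

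Short motifs were counted on the transcript strand of both exons, in DNA letters. TAG, which is part of the motifs known for hnRNP A1 and the Musashi proteins, occurred 3 times in the PKM1 exon and was not found in the PKM2 exon. Of 716 annotated exons of 167 bases, 55.3% held it. TCTT, a core motif of PTBP1, occurred 1 time in the PKM1 exon and not in the PKM2 exon (47.3% of those exons held it). CTTC occurred 1 time in the PKM2 exon and not in the PKM1 exon (62.8%). TAGG, which contains TAG, was in neither (10.5%). These are letter matches within the exons, the introns beside them were not searched, and binding was not measured.

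Levels are given in CPM, the reads on a gene per 1000000 reads after scaling by the trimmed mean of M values (TMM) over all 12 libraries, which puts rods and retina on a common scale. Totals per library ran from 13458890 to 22790074 reads. Pkm, the targeted gene, fell by 1.20 on the log2 scale in Pkm2 Rodko rods (SE 0.0838, adjusted p = 5.36e-05 by limma over 20658 genes). The 20 rod markers summed to between 267297 and 284353 CPM in control rods and to between 63972 and 74698 in control retina. In control rods the summed markers of amacrine cells (13 genes, 170 to 254 CPM) and of Müller cells (12 genes, 657 to 833) stood at 13.4% and 14.97% of their mean level in control retina. The summed bipolar list (20 genes) stood at 38.4%, although 18 of its genes were lower and 1 was higher, with a median log2 difference of -3.00. The cone list (12 genes) stood at 70.9%. No marker of these 5 lists was at 0 in all libraries of a group.

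In rods of control mice, compared per kilobase of exon, Hnrnpa1 had the highest level (120 CPM per kb), followed by Msi1 (93.8), Hnrnpa2b1 (87.0), Msi2 (43.5) and Srsf3 (36.0). Ptbp1 (8.43), Ptbp2 (7.91), Srrm3 (5.46), Srrm4 (3.67) and Rbm4 (0.34) followed at much lower levels. Neighbours in this order did not overlap between libraries, except Msi1 with Hnrnpa2b1 and Ptbp1 with Ptbp2. The order rests on the length of all annotated exons. With the longest coding transcript in its place, which was chosen after the data were seen, Hnrnpa2b1 came first (332) ahead of Hnrnpa1 (197), Srsf3 (109) passed Msi2 (70.4), and Ptbp2 (19.2) passed Ptbp1 (12.6). In control retina, per kb of all exons, Srrm4 (8.57) stood above Ptbp2 (6.18) and Srrm3 (5.39), whereas in control rods it stood below both. This change in order depends on the length used. Per kb of the longest coding transcript, Srrm4 (9.96) stood below Ptbp2 in control retina as well. There it stood above Srrm3 (8.78), but the libraries of Srrm4 and Srrm3 overlapped.

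**Figure D1:**
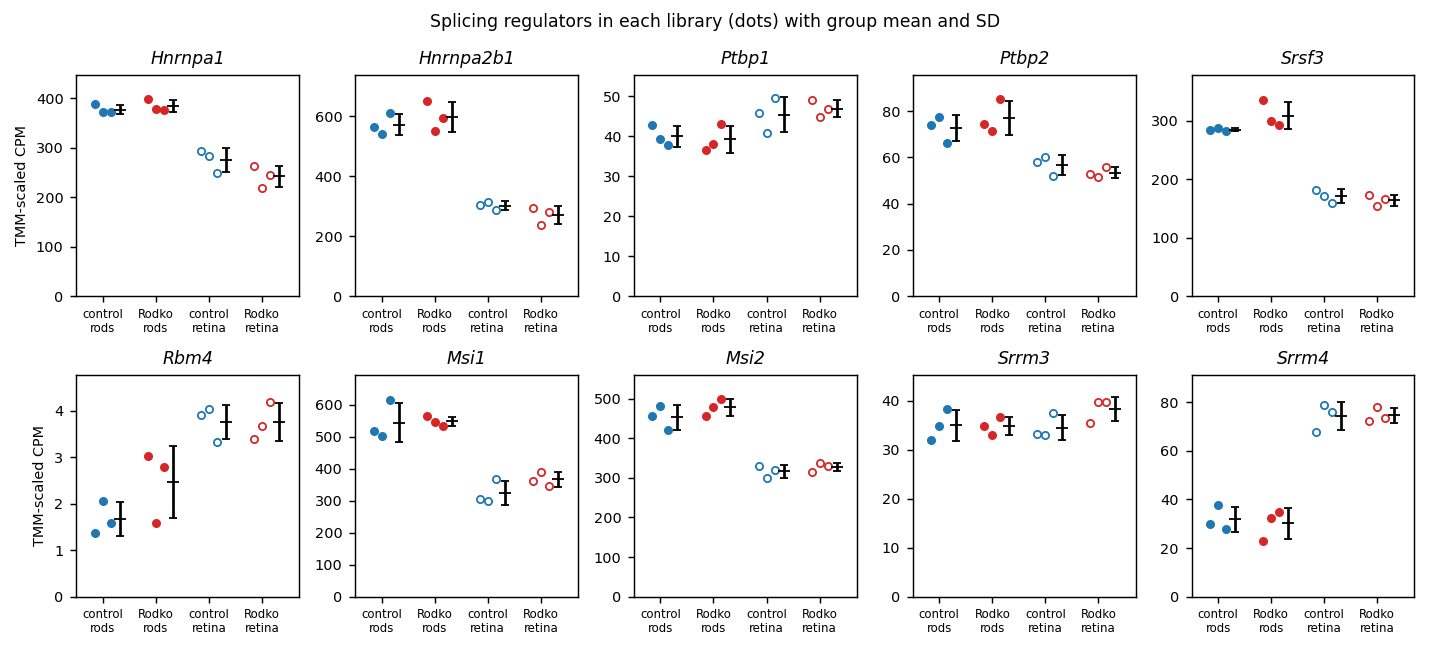
Level of each of the 10 splicing regulators in the 12 libraries, in TMM-scaled CPM on a linear axis that starts at 0. Filled points are rod libraries, open points are retina libraries, blue is control and red is Pkm2 Rodko, and the black bar beside each group is its mean ± SD (n = 3). Srrm4 lay between 23.1 and 37.7 in all 6 rod libraries and between 68.0 and 79.1 in all 6 retina libraries, and the genotypes overlapped within each fraction.

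The first comparison asked which regulators differed between rods and whole retina. In control mice 6 of the 10 genes (Hnrnpa2b1, Msi1, Srsf3, Msi2, Hnrnpa1 and Ptbp2) were higher in rods and 2 (Rbm4 and Srrm4) were lower, with limma over 25584 genes at an adjusted p of 0.05. Of all genes tested, 23.5% were higher and 35.5% lower. The median log2 difference of the 10 genes was 0.41, and that of all genes was -0.37. In whole retina, fewer cells of a type and less RNA per cell cannot be told apart. The rod libraries hold ribosome-bound RNA and the retina libraries RNA of the whole lysate. A difference between cell types and a difference in ribosome binding therefore cannot be told apart either, in this and all later comparisons of the fractions.

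Among the repressors of the PKM1 exon, Hnrnpa2b1 had the highest value of the 10, while Rbm4 and Srrm4 lay further from 0 in the other direction. Its levels were 565, 543 and 611 CPM in the control rod libraries and 304, 316 and 288 in the control retina libraries. The lowest rod library stood well above the highest retina library. The difference was 0.92 on the log2 scale, or 1.89-fold (95% interval 1.66 to 2.16, adjusted p = 2.87e-07). Hnrnpa1 was at 388, 372 and 372 in control rods and at 294, 283 and 248 in control retina. This was a smaller difference of 0.46 (SE 0.0803, adjusted p = 0.000137), again with no overlap.

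Ptbp1 and Ptbp2 encode the widely expressed and the neuronal polypyrimidine tract binding protein, and of these only Ptbp2 passed the test with TMM. It was at 74.0, 77.4 and 66.4 in control rods and at 57.9, 60.3 and 51.8 in control retina (log2 difference 0.36, SE 0.0918, adjusted p = 0.0034). Ptbp1 was at 42.8, 39.2 and 37.9 in control rods and at 45.8, 40.8 and 49.5 in control retina, and these groups overlapped. Its log2 difference of -0.18 did not pass the test (95% interval -0.38 to 0.02, adjusted p = 0.119). The Ptbp1 difference passed with all libraries under RLE scaling (-0.24, adjusted p = 0.0368) and with DESeq2 (-0.25, adjusted p = 0.0278), and without control retina replicate 2 (-0.25, adjusted p = 0.0413).

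Srsf3, an SR protein that favors the PKM2 exon, was at 285, 287 and 282 in control rods and at 182, 172 and 160.0 in control retina. All rod libraries were higher, by 0.73 on the log2 scale (SE 0.0759, adjusted p = 5.73e-07). Rbm4, which favors the PKM1 exon, was near the lower limit of the data at 15 to 40 reads per control rod library. It stood at 1.36, 2.06 and 1.59 CPM in control rods and at 3.91, 4.04 and 3.33 in control retina. That is 2.24-fold lower in rods (log2 difference -1.16, SE 0.270, adjusted p = 0.00158).

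Both Musashi genes were higher in rods. Msi1 was at 518, 501 and 614 in control rods and at 306, 299 and 367 in control retina (log2 difference 0.75, SE 0.0928, adjusted p = 4.44e-06). Msi2 was at 456, 483 and 421 in control rods and at 331, 299 and 319 in control retina (log2 difference 0.52, SE 0.0721, adjusted p = 1.49e-05). For both genes no rod library was as low as any retina library.

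The SR-related pair was split. Srrm4 was at 30.0, 37.7 and 27.9 in control rods and at 68.0, 79.1 and 76.1 in control retina. It was 2.35-fold lower in rods (log2 difference -1.23, SE 0.140, adjusted p = 1.62e-06), the lowest value of the 10. Srrm3 was at 31.9, 34.8 and 38.2 in control rods and at 33.1, 33.0 and 37.5 in control retina, with a log2 difference of 0.02 (95% interval -0.18 to 0.22, adjusted p = 0.885). For Srrm3 the fractions overlapped and no difference was detectable on this scale. For comparison, 85 markers of retinal cells other than rods and cones had a median log2 difference of -2.96, and 5 of them lay above the value of Srrm4.

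Pkm2 Rodko mice gave the same 6 higher genes. Of all genes, 23.9% were higher and 35.1% lower in that comparison. Hnrnpa2b1 (1.15), Srsf3 (0.91), Hnrnpa1 (0.67), Msi1 (0.58), Msi2 (0.55) and Ptbp2 (0.52) had adjusted p-values between 1.92e-08 and 0.000133 by limma, these values being log2 differences. The 2 lower genes were Srrm4 (-1.33, adjusted p = 6.04e-07) and Ptbp1 (-0.26, adjusted p = 0.0281). The Ptbp1 call was lost without Pkm2 Rodko rods replicate 1 or 2 or without Pkm2 Rodko retina replicate 1 or 3, with adjusted p-values from 0.0602 to 0.0935. Rbm4 (-0.64, adjusted p = 0.0508) just missed the threshold. It passed with RLE scaling (adjusted p = 0.0317), with edgeR (0.0449), with DESeq2 (0.0282) and over genes with at least 10 reads in every library (0.0274). It also passed with total reads (adjusted p = 0.00106) and in the deposited values (0.000832), when same-numbered rod and retina libraries were paired as a replicate block (0.0448), and without Pkm2 Rodko rods replicate 1 (0.0258). Rbm4 did not pass with a pseudocount of 0.1, with no filter, or when any other Pkm2 Rodko library was left out. Srrm3 (-0.13, adjusted p = 0.24) did not pass.

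**Figure D2:**
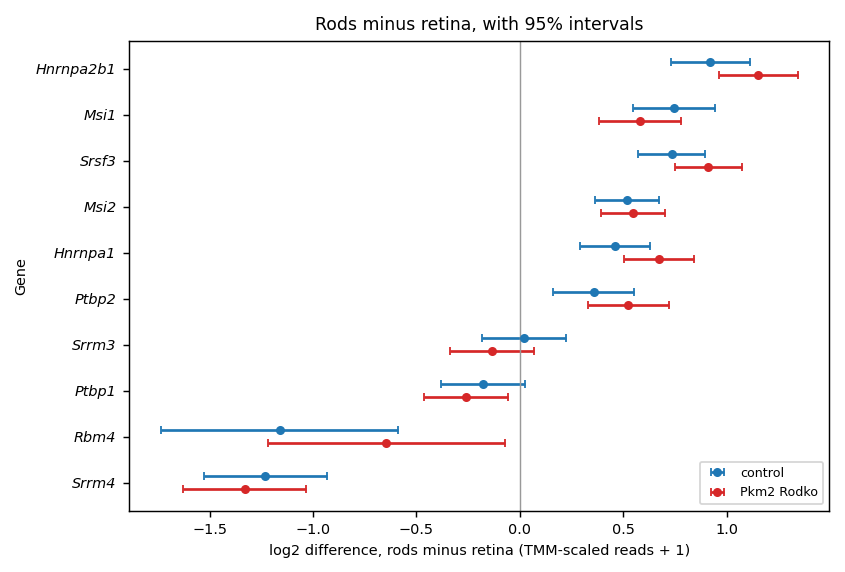
Log2 difference between rods and retina (horizontal axis, TMM-scaled reads + 1) for each regulator in control (blue) and Pkm2 Rodko (red) mice, with 95% intervals from limma over 3 libraries a group. In both genotypes the intervals of 6 genes lay to the right of 0, Srrm4 lay near -1.23 and -1.33, and the interval of Srrm3 included 0.

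These differences depend on how the fractions are put on a common scale. The median log2 difference of all genes in control mice was -0.37 with TMM, -0.42 with RLE, -0.76 with scaling by total reads and -0.80 in the deposited values, in which each fraction was scaled on its own. With total reads, 8.43% of all genes were higher and 49.1% lower. On that scale Hnrnpa2b1 (0.37, adjusted p = 0.001) and Srsf3 (0.18, adjusted p = 0.0423) were higher, and Srrm4 (-1.78), Rbm4 (-1.70), Ptbp1 (-0.73) and Srrm3 (-0.53) were lower. The values of Msi1 (0.20), Msi2 (-0.03), Hnrnpa1 (-0.09) and Ptbp2 (-0.19) did not pass the test there. Under all 4 scalings Hnrnpa2b1 was called higher and Srrm4 and Rbm4 were called lower in control rods.

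A scaling shifts nearly all genes alike, so values taken against the median of all genes move less by construction. Hnrnpa2b1 lay 1.29 above that median with TMM and 1.12 above it in the deposited values. Msi1 (1.11 and 0.95), Srsf3 (1.10 and 0.94), Msi2 (0.88 and 0.72), Hnrnpa1 (0.83 and 0.66) and Ptbp2 (0.72 and 0.56) also lay above it on both scales. Srrm3 lay 0.38 and 0.22 above it, and Ptbp1 0.19 and 0.02. Srrm4 lay below it by values of -0.86 and -1.03, and Rbm4 by -0.80 and -0.94.

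**Figure D3:**
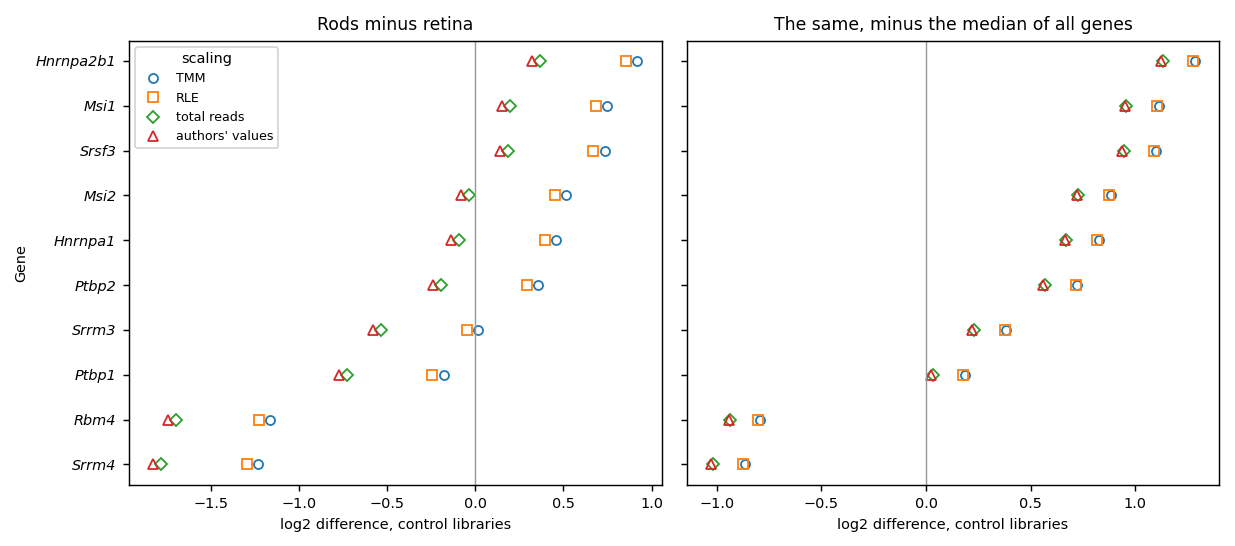
Log2 difference between control rods and control retina under 4 scalings (marker shapes), as fitted in the left panel and after subtraction of the median of all genes in the right panel. The left panel shows Hnrnpa1, Msi2, Ptbp2 and Srrm3 on both sides of 0. In the right panel, where the subtraction takes out most of what a scaling shifts for all genes alike, Srrm4 and Rbm4 lie on the left of 0 and the other 8 on the right.

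Ratios of related regulators within a library need no scaling between libraries. These 4 ratios were chosen after the data were seen, were taken per kb of exon, and were compared between rods and retina over the 6 pairs of same-numbered libraries. The Srrm3/Srrm4 ratio was 1.44, 1.25 and 1.85 in control rods and 0.660, 0.565 and 0.667 in control retina. In Pkm2 Rodko mice it was 2.05, 1.38 and 1.42 in rods and 0.663, 0.687 and 0.732 in retina. Per kb of all exons, every rod library thus had more Srrm3 than Srrm4, and every retina library less. Per kb of the longest coding transcript, the ratio in Pkm2 Rodko retina replicate 3 turned to 1.03, while the other 5 retina libraries lay between 0.792 and 0.963.

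The log2 ratio Srrm3/Srrm4 was higher in rods in 6 of 6 pairs, by 1.22 ± 0.268 (SD, n = 6 pairs). With a two-sided exact sign-flip permutation test p was 0.0312, the smallest that 6 pairs can give, and 0.0417 after adjustment over the 4 ratios. Ptbp2/Ptbp1 was higher in rods in 6 of 6 pairs by 0.66 ± 0.192, and Hnrnpa2b1/Hnrnpa1 in 6 of 6 pairs by 0.47 ± 0.0574, with the same exact p. Msi1/Msi2 was higher in 5 of 6 pairs by 0.13 ± 0.15, which did not pass (exact sign-flip p = 0.0625). The level at which a ratio stands depends on the lengths used, but its difference between fractions does not.

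**Figure D4:**
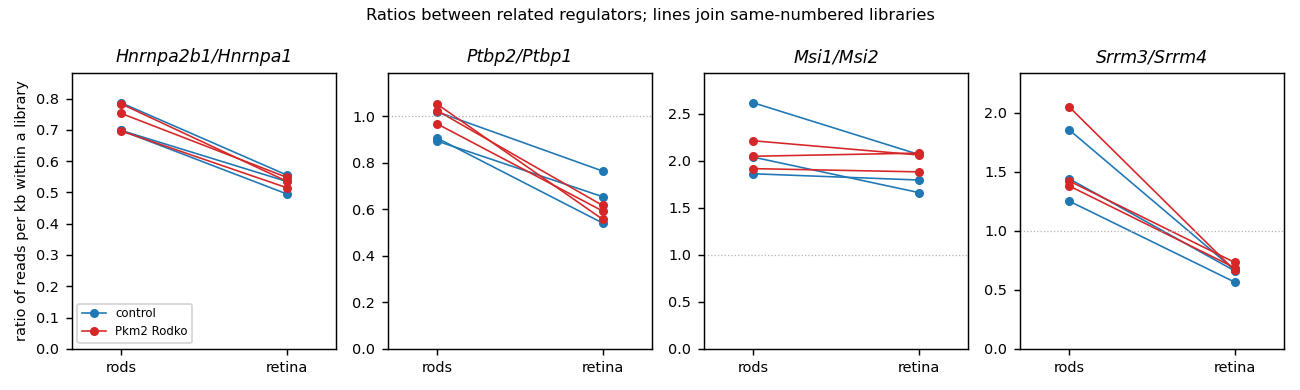
Ratio of reads per kb between related regulators in each library (vertical axis, linear from 0), with rods on the left and retina on the right of each panel. Lines join libraries of the same number, blue is control and red is Pkm2 Rodko, and the dotted line marks equal levels where the axis reaches them. Srrm3/Srrm4 ran from 1.25 to 2.05 in rods and from 0.565 to 0.732 in retina, and Msi1/Msi2 overlapped between the fractions.

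The second comparison asked whether the loss of Pkm2 in rods came with other levels of its splicing regulators. In rods none of the 10 genes passed the adjusted threshold, and none had an unadjusted p under 0.05 with limma, edgeR or DESeq2. Among all 20658 genes 0.0194% passed, all of them lower, and 4.77% had such an unadjusted p. Log2 differences between Pkm2 Rodko and control ran from -0.08 for Srrm4 to 0.52 for Rbm4, with a median of 0.05 (0.0060 for all genes).

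Srsf3 was the only 1 of the 10 whose rod libraries did not overlap between genotypes. Its deposited values were 4021.3, 4067.2 and 3948.5 in control rods and 4720.0, 4257.5 and 4161.0 in Pkm2 Rodko rods, a log2 difference of 0.12 (95% interval -0.05 to 0.30, adjusted p = 0.932). Of all genes, 9.89% did not overlap. Hnrnpa1 (0.04, interval -0.13 to 0.20), Hnrnpa2b1 (0.07, -0.12 to 0.26) and Ptbp1 (-0.02, -0.26 to 0.22) had narrow intervals around 0. For 9 of the 10 genes the intervals stayed between -0.44 and 0.32. Rbm4, with deposited values of 19.2, 29.2 and 22.2 in control and 42.6, 22.5 and 39.6 in Pkm2 Rodko rods, had an interval from -0.19 to 1.23, which holds small changes as well as considerable ones.

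In retina none of the 10 passed the adjusted threshold either, and 0.00391% of all 25590 genes did. Msi1 was the only 1 with an unadjusted p under 0.05 by limma, where 4.18% of all genes had such a p. Its deposited values were 6483.2, 6404.2 and 7844.5 in control retina and 7745.2, 8385.2 and 7539.4 in Pkm2 Rodko retina, which overlapped (log2 difference 0.20, SE 0.0872, adjusted p = 0.947 by limma). By unadjusted p, edgeR gave 0 and DESeq2 1 of the 10 genes. Log2 differences of the 10 ran from -0.17 for Hnrnpa1 to 0.20 for Msi1.

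The genotype effect in rods minus that in retina passed for none of the 10 genes or of all 25584 genes with limma. The targeted gene Pkm thus did not pass in this comparison either. No unadjusted p of the 10 was under 0.05 by limma, edgeR or DESeq2 (4.41% of all genes by limma). The largest values of the 10 were 0.52 for Rbm4 (95% interval -0.29 to 1.33), 0.23 for Hnrnpa2b1 (-0.04 to 0.50) and 0.21 for Hnrnpa1 (-0.03 to 0.45). The 4 ratios of related regulators overlapped between genotypes in rods and in retina. In Pkm2 Rodko rods relative to control rods, marker lists of other retinal cells had medians below 0, such as -0.51 for amacrine cells and -0.36 for bipolar cells. Their part in these values was not tested.

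**Figure D5:**
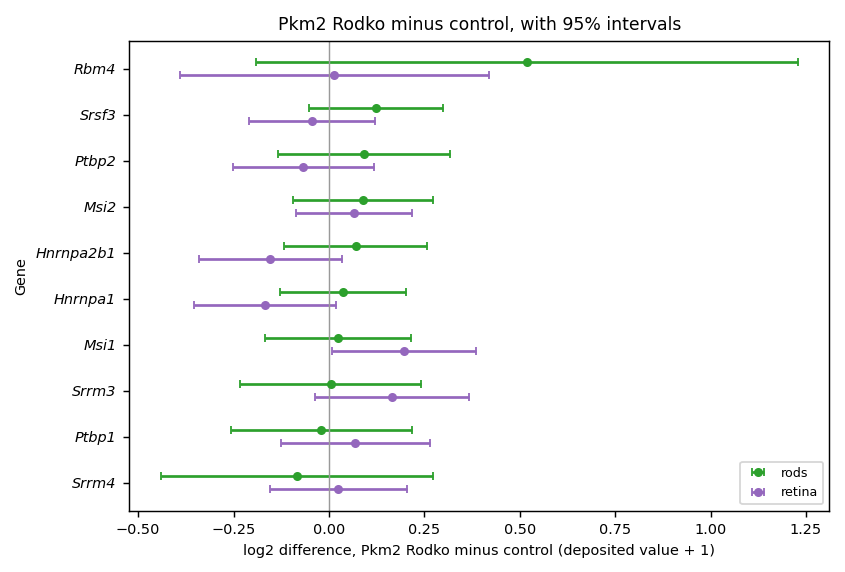
Log2 difference between Pkm2 Rodko and control (horizontal axis, deposited value + 1) for each regulator in rods (green) and retina (purple), with 95% intervals from limma over 3 libraries a group. All intervals include 0 except that of Msi1 in retina (0.01 to 0.38), whose adjusted p was 0.947, and Rbm4 in rods has the widest interval.

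Reads of some of these genes could have been assigned to related genes, since the counting rule and its use of strand are not given in the sources used here. Of the 50-base windows of annotated transcripts, 46.7% of those of Hnrnpa1 also occur in other genes, mostly in the pseudogenes Gm10052, Gm7729 and Gm5643, and Gm10052 received 7.15% as many reads as Hnrnpa1 in rods. For Srsf3 the share was 31.5%, with Gm12355 at 5.84% and Gm9761 at 6.05% of its reads in rods. For Rbm4 it was 58.8%, as Gm21992 covers 60.5% of its exon bases on the same strand. All of these shared windows occur in Gm21992, and 13.1% of the windows of Rbm4 occur in its paralog Rbm4b as well. Gm21992 had 54.3% as many reads as Rbm4 in rods and 37.1% in retina. By limma, its log2 difference between rods and retina was 0.15 in control mice (adjusted p = 0.73), where Rbm4 had -1.16. In Pkm2 Rodko mice it was -0.71 (adjusted p = 0.103), where Rbm4 had -0.64. Between genotypes in rods Gm21992 had -0.69 (adjusted p = 0.932) and Rbm4 0.52. The part of Gm21992 in the values of Rbm4 was not tested. The level of Rbm4 is therefore uncertain.

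Rbm4b, which encodes a close relative of RBM4, had more reads than Rbm4 in both fractions and a log2 difference of 0.07 between control rods and control retina (SE 0.102, adjusted p = 0.549). It thus did not share the lower rod value of Rbm4 in this table. For Ptbp1, 24.2% of windows were shared. Its neighbour Plppr3 overlaps 5.30% of its exon bases on the opposite strand and had 31.7% as many reads as Ptbp1 in retina but 3.13% in rods, which bears on the Ptbp2/Ptbp1 ratio if counting ignored strand. Its part in that ratio was not tested. Hnrnpa2b1 (1.60%) and Srrm4 (0.26%) had few shared windows, and Ptbp2, Msi1, Msi2 and Srrm3 had 0.

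The other splicing regulators comprised 73 genes in 3 groups, of which 72 were tested, and 35 were higher and 22 lower in control rods, against 23.5% and 35.5% of all genes. With total reads, on which 8.43% of all genes were higher and 49.1% lower, the 72 genes split into 17 higher and 38 lower. The 24 other hnRNP and hnRNP-like genes, which bind nascent transcripts, included 22 that were higher and 0 that were lower, with a median log2 difference of 0.78, although with total reads 15 were higher and 4 lower. Raly was at 611 ± 67.8 CPM in control rods and 198 ± 7.92 in control retina (SD, n = 3, log2 difference 1.62), followed by Hnrnpf (1.44), Hnrnpm (1.40) and Hnrnpab (1.16). Of 14 SR and SR-like genes, 6 were higher and 3 lower with TMM, whereas 0 were higher and 8 lower with total reads.

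Of 34 neuronal and tissue-restricted factors tested, 7 were higher and 19 lower, with a median of -1.28 (2 higher and 26 lower with total reads). Of all genes, 23.5% were higher and 35.5% lower with TMM, and 8.43% and 49.1% with total reads. The lowest values of the whole list were those of Khdrbs2 (-3.62), Nova1 (-3.51) and Elavl4 (-3.23), which encode neuronal RNA-binding proteins, and of the SR-like gene Srsf12 (-3.20). Nova1 was at 2.92 ± 1.58 in control rods and 30.6 ± 3.46 in control retina (SD, n = 3). The value of Srrm4 (-1.23) was near the median of this group. In Pkm2 Rodko against control rods none of 71 genes passed with limma, edgeR or DESeq2. By unadjusted p under 0.05, limma gave 2 higher and 7 lower, and edgeR and DESeq2 gave 2 higher and 6 lower, where 4.77% of all genes had such a p by limma in either direction. The 7 lower genes by limma all belonged to the neuronal and tissue-restricted group. In the same comparison 9 of 20 bipolar and 6 of 13 amacrine markers were lower by unadjusted p, with medians of -0.36 and -0.51, and their part in these values was not tested. The smallest p-values were those of Celf3 (-0.54) and Esrp2 (-2.03), with an adjusted p of 0.932 for both by limma, of which Esrp2 was at 0.229 CPM in control rods. In retina none of 72 passed with any of these tools. Hnrnph2 (-0.17) and Srsf5 (-0.29) had the smallest p-values by limma (adjusted p = 0.947 for both), with 2 genes under an unadjusted 0.05 by limma, 1 by edgeR and 2 by DESeq2. Of all genes, 4.18% had such a p by limma.

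A further list of 10 genes with exons known to be included in photoreceptors described the hosts of such exons. All 10 were higher in control rods, where 23.5% of all genes were, and 8 of 10 with total reads, where 8.43% of all genes were. The list was chosen for photoreceptor exons, and Reep6 is also 1 of the 20 rod markers. Higher levels in rods can thus follow from the choice of the list. Log2 differences ran from 0.43 for Cc2d2a, a ciliary transition zone gene (adjusted p = 0.018), to 1.76 for Impdh1, a guanine nucleotide synthesis enzyme (adjusted p = 3.17e-10). Their median was 1.26. Impdh1 was at 2241 ± 174 CPM in control rods and 658 ± 26.4 in control retina (SD, n = 3). In Pkm2 Rodko rods none passed with limma, edgeR or DESeq2 and none had an unadjusted p under 0.05, with log2 differences from -0.08 for Reep6 to 0.20 for Cep290. In retina none passed either. By unadjusted p under 0.05, limma gave 2 higher genes there, edgeR 1 and DESeq2 3 (4.18% of all genes by limma). For the genotype effect in rods minus that in retina none passed, and each tool gave 1 lower gene by unadjusted p (4.41% of all genes by limma). These are values of whole genes, and the share of transcripts with the photoreceptor exon was not measured.

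Profiles over the 12 libraries were compared among 11137 genes with at least 100 mean scaled reads, by the root mean square distance of centred log2 values. The closest gene to Srrm4 was Ogt (0.107 log2 units), to Srrm3 Iqsec1 (0.0652), to Msi1 Slc39a3 (0.0668) and to Msi2 Rybp (0.0376). Hnrnpa1 was closest to Rpl9-ps4 (0.0586), Hnrnpa2b1 to Cct6a (0.0673), Srsf3 to Anp32b (0.0442), Ptbp1 to Enah (0.0706) and Ptbp2 to Npepps (0.0464). The libraries share 2 fractions, so a difference between fractions is part of the profile of each gene that had one.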

How the data were processed

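The table deposited by the authors holds a signal per gene and library: its reads over a size factor (median of ratios, within a fraction), to 1 decimal. Of all positive values, 99.997% were whole multiples of 1 read (tolerance 0.05), and reads were recovered from them. The submitters' processing notes name CASAVA 1.8.2, HISAT2, DESeq2, edgeR and GRCm39. The annotation, the counting rule and the use of strand are not given in the sources used here. Samples were grouped by their labels.

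The 10 genes and all lists were chosen with earlier results of these data known. Genotypes were compared within a fraction by limma 3.58.1 (R 4.3.3) with a variance trend on log2(deposited value + 1), over genes with a mean of at least 1 in a genotype. Fractions, and the genotype effects of the fractions, were compared in 1 limma fit with 4 group means on recovered reads scaled by TMM over 12 libraries, as log2(reads + 1). P-values were adjusted by Benjamini-Hochberg over all genes tested, at 0.05. The added 1 makes fold changes of low genes too small. The scripts were tested on simulated data. Python 3.11.15, scipy 1.17.1 and matplotlib 3.10.9 gave exact tests and figures.

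Same-numbered rod and retina libraries deviated together from their group means in 6 of 6 pairs (r from 0.158 to 0.45 across 10571 genes, which are not independent replicates). Rod and retina libraries of a genotype with different numbers had r from -0.455 to 0.105. The numbers were therefore taken to pair the fractions. Alternatives were RLE or total-read scaling, the deposited values, edgeR 4.0.16, DESeq2 1.42.0, a pseudocount of 0.1, no filter or at least 10 reads in every library, 1 fit of all 12 libraries, TMM over 6 libraries, no variance trend, the replicate block, and leaving out each library. Named genes are the 10 regulators and Pkm. Of the other regulators, the 4 highest and 4 lowest called in control rods and the 2 with the smallest p per genotype comparison were named. Also named are genes that share reads with a regulator, the nearest profile of each regulator (that of Rbm4 is not reported here), and the photoreceptor exon genes with the highest and lowest difference. Gene positions and lengths came from GENCODE vM21 (GRCm38) by identifier.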

Additional observations from a re-analysis of the deposited data

How the results depend on the processing

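With 3 libraries a group, the precision of each comparison rests on their spread. Rbm4 had only 15 to 87 reads a library, and counting error was not separated from library spread. Control rods against control retina gave 6 higher and 2 lower of the 10 genes with TMM, 2 higher and 4 lower with total reads, and 1 higher and 5 lower in the deposited values. The same comparison in Pkm2 Rodko mice gave 2 higher and 4 lower on both of those scales, and between 1 and 2 lower when a library was left out. Of the other splicing regulators 17 were higher and 38 lower with total reads, and 13 higher and 38 lower in the deposited values. In control mice the log2 difference turned with total reads and in the deposited values for Hnrnpa1 (-0.090 and -0.14), Ptbp2 (-0.19 and -0.24), Msi2 (-0.034 and -0.079) and Srrm3 (-0.53 and -0.58). Srrm3 was -0.045 with RLE and -0.044 with DESeq2. In Pkm2 Rodko mice it turned for Ptbp2 (-0.060 and -0.079), Msi1 (-0.0027 and -0.022) and Msi2 (-0.038 and -0.056). Of values close to 0, those of Srrm3 in rods (-0.0037) and Rbm4 in retina (-0.0024) in 1 fit of all 12 libraries, and Msi2 in the difference of genotype effects (-0.0040) with total reads, also turned. The cause was not tested.

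Leaving out 1 library in turn gave a range from -0.049 to 0.095 for Srrm3 in control rods against retina. For the genotypes in rods the range was -0.091 to 0.036 for Ptbp1, -0.030 to 0.11 for Msi1, -0.057 to 0.065 for Srrm3 and -0.20 to 0.10 for Srrm4. In retina it was -0.0023 to 0.14 for Ptbp1, -0.091 to 0.0035 for Srsf3, -0.076 to 0.087 for Rbm4 and -0.045 to 0.073 for Srrm4. For the difference of genotype effects it was -0.022 to 0.092 for Msi2 and -0.21 to 0.063 for Srrm4. Of 220 counts under an alternative, 187 equalled the reported count and 33 did not. The 20 values of the ratios stayed within 1 SD of those reported. Of the values of single genes, 736 kept their direction and their side of the threshold, 15 came to pass it in the same direction, 9 no longer passed it and 40 changed sign. Of these 40, 3 passed in the other direction, namely Srrm3 with total reads and in the deposited values, and Ptbp2 in the deposited values (adjusted p = 0.0405), in control mice. With the replicate block Rbm4 passed in Pkm2 Rodko rods against retina (adjusted p = 0.0448), and no other call on the 10 genes changed. Between genotypes the libraries share only a number (r from -0.32 to 0.12), and libraries with different numbers reached an r of 0.405. The block there gave 4 higher and 4 lower of all genes in rods and 0 in retina.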
